A study of Mus musculus with 8 samples.

Results

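Cluster 6 is one of the 12 groups of cells, numbered 0 to 11, into which the authors divided single-cell RNA profiles of mouse white preadipocytes and of their differentiating progeny. Its members are all 1416 entries that the deposited table of cluster markers gives for this cluster, of 13337 entries for 3904 genes over all clusters. The cells came from inguinal white fat of C57BL/6 mice, either wild type (WT) or lacking both Hmgn1 and Hmgn2 (double knockout, DKO). HMGN1 and HMGN2 are nuclear proteins that bind nucleosomes, the units of DNA wrapped around histones. WT and DKO preadipocytes were grown on collagen and sampled at day 0 and at day 6 of an induction towards brown-like adipocytes with insulin, dexamethasone, IBMX, T3 and rosiglitazone, followed by insulin and T3. With 2 samples per genotype and day there were 8 samples in 4 groups.

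The table pools the cells of all 8 samples. Single samples, genotypes and days therefore have no values of their own, so that no SD could be computed, no difference was tested and DKO was compared with WT nowhere. Depth and cell number are unknown from it. Each entry gives the percent of cells in which a gene was detected, once inside the cluster and once in all other cells, and a gene was counted as detected in more or fewer cells where these differed by at least 10 percentage points. A gene has an entry only where it passed the authors' minimums, so a gene without an entry is not a gene at 0. The same genes were used to form the clusters, and differences between clusters are therefore descriptions of how the cells were divided.

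Dividing cells copy their DNA in S phase and separate the copies in mitosis, and each step is served by genes that are active mainly at that step. Replication genes such as the Mcm helicase subunits are transcribed at entry into S phase, core histone genes during it, and genes for the spindle, the kinetochore and chromosome condensation later, in G2 and mitosis. Cultured preadipocytes are fibroblast-like cells with many contractile stress fibres. On differentiation they lose these fibres and begin to make proteins of lipid uptake and storage, and growth-arrested preadipocyte lines commonly pass through a few divisions after induction.

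The 4 genes that mark cluster 6 were found in most of its cells. Mki67, the proliferation antigen Ki-67, was detected in 92.0% of cluster 6 cells and in 17.4% of all other cells. Top2a, the topoisomerase that untangles sister chromatids, was detected in 95.3% and 25%. Hist1h1b, a linker histone made in S phase, was detected in 92.5% and 28.7%. Serpina3n, a secreted protease inhibitor that the study used with the collagen gene Col5a3 to annotate differentiating adipocytes, was detected in 89.7% of cluster 6 cells and in 53.1% of other cells, and Col5a3 in 83.1% and 34.2%. The combination of cycling and differentiating markers in its label was thus present at the level of the whole cluster. With Mki67 in 92.0% and Serpina3n in 89.7% of the same cells, most of these cells must have held both. The exact share that held both is not given.

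Cluster 6 held an estimated 7.46% of all cells. Solved one by one from the 581 genes at least 20 points apart inside and outside, the share had an SD of 0.105 percentage points. This SD describes how closely the genes agree within the same pooled fractions, and not a spread over samples. The 1416 entries were detected in a median of 70.0% of cells inside and 51.6% outside, and 1057 of them in more cells inside, 357 in fewer and 2 in equally many. By at least 10 points, 735 entries (51.9%) were detected in more cells of cluster 6 and 211 (14.9%) in fewer, with a median difference of 10.7 points. The table gives no number of transcripts per cell, so a gene made in more cells cannot be told apart from more RNA captured per cell. A ceiling also applied, since 81 entries were detected in at least 90% of cells both inside and outside.

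**Figure D1:**
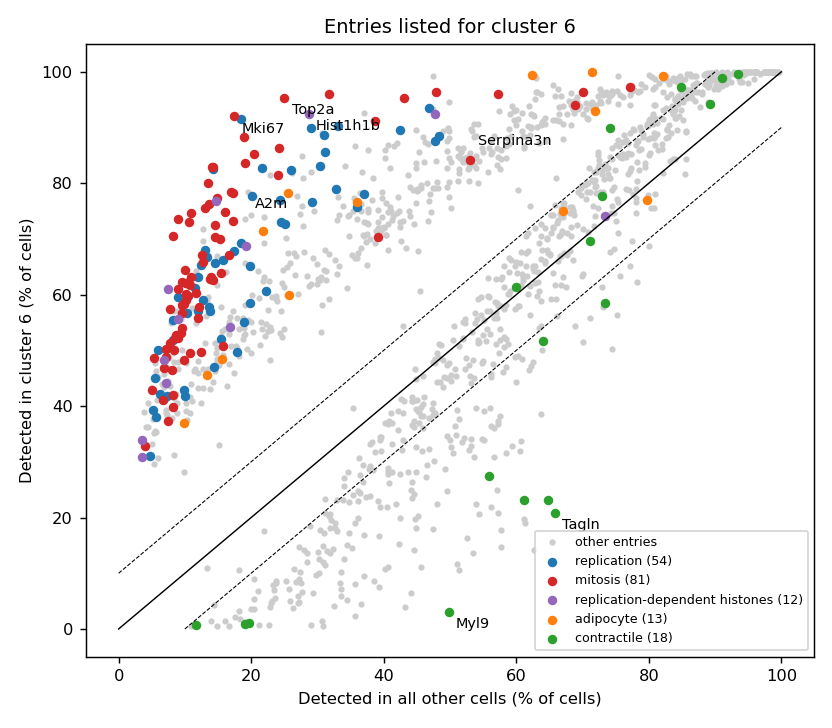
Percent of cells with each of the 1416 genes detected inside cluster 6 (vertical) and in all other cells (horizontal), both axes linear. Coloured points are 5 gene lists with the number of listed members, the solid line marks equal detection and the dashed lines a difference of 10 points; all 54 replication and all 81 mitosis genes lie above the upper dashed line, while Myl9 and Tagln lie far below the lower one.

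The genes with the largest difference were genes of cell division. After Mki67 they were Pclaf, a partner of the replication clamp PCNA (91.6% inside and 18.5% outside), Top2a, the chromosomal passenger gene Birc5 (88.3% and 18.9%), the condensin II subunit gene Ncapg2 (83.0% and 14.1%), the kinetochore gene Cenpf (83.0% and 14.3%), the replication checkpoint gene Clspn (82.5% and 14.2%), the spindle genes Hmmr (80.0% and 13.5%) and Tpx2 (85.2% and 20.4%), and the mitotic kinesin gene Kif15 (73.6% and 9.0%). Of the 93 genes of a mitosis list, 81 were listed for cluster 6 and 81 were detected in more of its cells, by a median of 49.3 points. Of 68 replication genes, 54 were listed and 54 were detected in more of its cells, by a median of 46.6 points, against 10.7 points over all entries. Over all entries 51.9% were detected in more cells. Genes that are rare in other cells could be listed only where they are high, so these complete counts partly follow from the listing. Of 12 listed replication-dependent histone genes, 11 (91.7%) were detected in more cells, by a median of 43.0 points over the 12. Hist1h2bc, at 74.2% inside and 73.4% outside, was the exception.

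The sequences just upstream of 5 of these genes are given here to show short words that are common before genes of the cycling lists. These genes were picked because they hold such words. They are the 250 bases before the gene start in RefSeq for GRCm38.p6, the assembly that mm10 follows, written 5′ to 3′ on the strand of the gene. Capitals mark 4 kinds of word, namely CCAAT boxes (CCAAT or ATTGG), the cell cycle homology region word (TTTGAA or TTCAAA), E2F-type words (TTTGGCGC, TTTCCCGC, TTCCCGCC or TTTCGCGC, on either strand, where overlapping words run together) and the TATA box (TATAAA, forward strand). Top2a is at chr11:99024190-99024439 on the minus strand, Mki67 at chr7:135716380-135716629 on the minus strand, Cdk1 at chr10:69352913-69353162 on the minus strand, Mcm5 at chr8:75109259-75109508 on the plus strand, and Hist1h1b, found under its newer symbol H1f5, at chr13:21780626-21780875 on the minus strand. In the GENCODE annotation of the same assembly the stretches of Top2a, Mki67 and Hist1h1b lie before the 5′ end of these protein-coding genes.
Top2a: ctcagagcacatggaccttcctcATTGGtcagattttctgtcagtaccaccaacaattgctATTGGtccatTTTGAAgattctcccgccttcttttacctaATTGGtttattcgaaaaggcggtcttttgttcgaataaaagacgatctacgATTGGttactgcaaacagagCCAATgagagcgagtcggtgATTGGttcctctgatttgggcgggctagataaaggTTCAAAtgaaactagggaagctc
Mki67: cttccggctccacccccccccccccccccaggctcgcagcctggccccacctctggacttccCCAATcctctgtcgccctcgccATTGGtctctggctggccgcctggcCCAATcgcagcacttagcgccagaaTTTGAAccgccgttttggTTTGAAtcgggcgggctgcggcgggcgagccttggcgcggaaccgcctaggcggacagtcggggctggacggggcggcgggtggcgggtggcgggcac
Cdk1: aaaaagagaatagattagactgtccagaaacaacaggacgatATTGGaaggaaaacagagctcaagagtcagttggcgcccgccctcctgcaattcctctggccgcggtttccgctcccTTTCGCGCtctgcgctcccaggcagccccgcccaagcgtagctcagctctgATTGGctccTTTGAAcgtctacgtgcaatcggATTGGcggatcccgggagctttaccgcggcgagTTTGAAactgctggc
Mcm5: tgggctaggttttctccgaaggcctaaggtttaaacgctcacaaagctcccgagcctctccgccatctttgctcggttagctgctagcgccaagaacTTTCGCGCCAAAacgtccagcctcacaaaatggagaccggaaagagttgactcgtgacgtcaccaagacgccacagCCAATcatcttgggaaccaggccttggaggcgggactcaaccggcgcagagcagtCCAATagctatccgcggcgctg
Hist1h1b: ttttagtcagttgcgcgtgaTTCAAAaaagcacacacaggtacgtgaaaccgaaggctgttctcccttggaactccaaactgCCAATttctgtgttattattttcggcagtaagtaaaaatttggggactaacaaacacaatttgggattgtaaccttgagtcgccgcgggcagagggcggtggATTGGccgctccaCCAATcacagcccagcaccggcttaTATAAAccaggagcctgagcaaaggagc

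Top2a had 6 CCAAT boxes, at 227, 189, 149, 98, 78 and 58 bases before the start, and 2 cell cycle homology words, at 179 and 23. In Mki67 there were 3 CCAAT boxes and 2 homology words, the latter at 116 and 98 bases before the start. The stretch before Cdk1, the kinase that drives entry into mitosis, held 3 CCAAT boxes, homology words at 71 and 15 bases and an E2F-type word at 131, and no TATA box. Before Mcm5, a subunit of the replicative helicase, stood 2 overlapping E2F-type words, at 153 and 149 bases, and no homology word. The stretch of Mcm5 also held CCAAT boxes at 77 and 22 bases. Before Hist1h1b there was a TATA box at 28 bases, CCAAT boxes at 53, 66 and 168 bases and a homology word at 230. The same stretch of other members lacked some kinds of word. That of Ccnb1 held 2 CCAAT boxes and no homology word, and those of Pclaf and Clspn held 2 CCAAT boxes each and no E2F-type word.

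These words were counted in the 300 bases around the starts, 250 before and 50 after, of all promoters in the RefSeq table, of which there were 32851. The homology word was in 68.5% of the 73 mitosis promoters found, in 11.8% of the 51 replication promoters and in 17.9% of all promoters. In the bases before the start alone it was in 39.7%, 11.8% and 16.0%. E2F-type words were in 47.1% of replication promoters, 9.59% of mitosis promoters and 3.49% of all promoters. CCAAT boxes were in 69.9% of mitosis and 60.8% of replication promoters and in 37.4% of all promoters. The TATA box was in 8 of 10 histone promoters and in 8.32% of all promoters. The histone promoters held CCAAT boxes in 9 of 10 and the homology word in 5 of 10. Before the start alone, the homology word was also in 5 of 10. For the 18 promoters of contractile genes, CCAAT boxes stood at 55.6%, the homology word at 11.1%, E2F-type words at 5.56% and the TATA box at 5.56%. The 735 genes detected in more cells of cluster 6 had 731 promoters in the table, from 597 genes, and held CCAAT boxes in 48.7%, the homology word in 21.9% (15.6% before the start), E2F-type words in 14.6% and the TATA box in 5.47%. These are shares of sequences with given letters and not of bound sites.

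**Figure D2:**
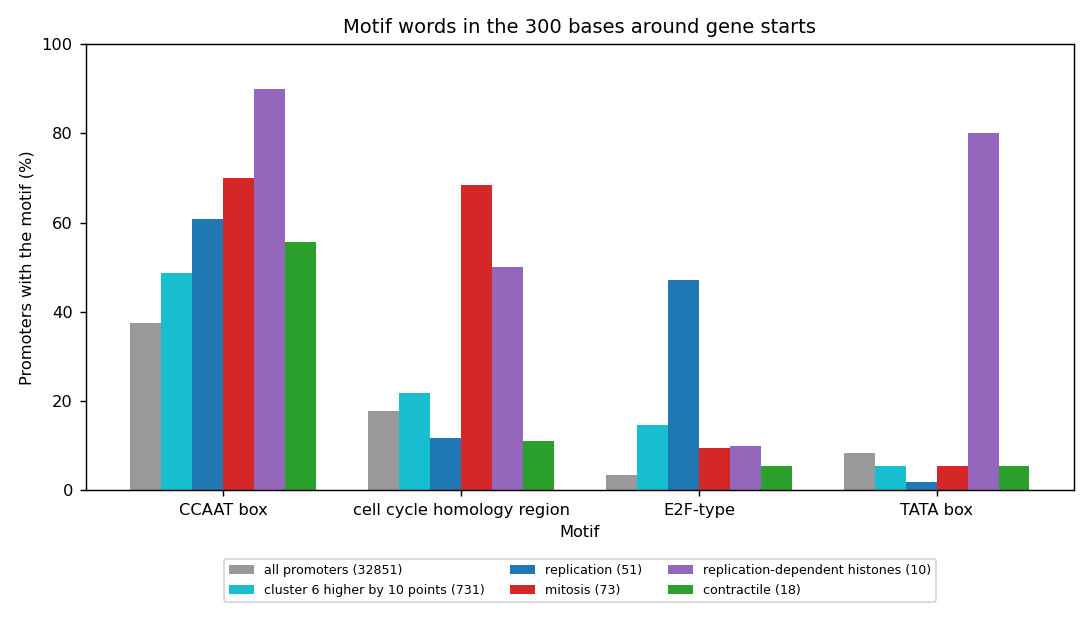
Bars give the percent of promoters (300 bases around the gene start, vertical axis from 0) that hold each of 4 sequence words, for all promoters and for 5 sets of cluster 6 genes, with the number of promoters of each set in the legend. In the 300 bases the homology word is highest for mitosis genes (68.5%) and E2F-type words for replication genes (47.1%). The TATA box (8 of 10) and the CCAAT box (9 of 10) are highest for histone genes. In the bases before the start alone, the homology word is in 39.7% of mitosis promoters and 5 of 10 histone promoters.

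Among the replication genes the helicase subunits were each detected in most cluster 6 cells except Mcm2, at 49.8% inside and 17.8% outside. The values for Mcm3 were 77% and 24.3%, for Mcm5 66.7% and 13.3%, and for Mcm7 82.3% and 26.0%. The ribonucleotide reductase subunit Rrm2, which supplies building blocks of DNA, was detected in 82.8% and 21.7%, and the chromatin ATPase Atad2, a gene of S phase, in 90% and 29.0%. The origin-licensing factor Cdc6 was detected in 31.1% and 4.7%. The cyclins of S phase entry were also listed, Ccne1 at 52.1% and 15.5% and Ccne2 at 55.5% and 8.2%.

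Clusters 5 and 9 were the other 2 in which Mki67 was detected in most cells, at 78.6% and 91.2%, and the other clusters with an entry for it were at 13.1% or lower. With cluster 6 they made up an estimated 22.1% of all cells. Clusters 5 and 9 held 8.81% and 5.8% of the cells. Over the 57 mitosis genes listed for all 3 clusters, the detection solved for the remaining 9 clusters together had a median of 4.2%, from 1.0% for the Max-interacting repressor Mxd3 to 73.0% for the ubiquitin-conjugating enzyme gene Ube2s. For the 8 replication genes listed for all 3 the median was 10.6%, from 2.7% for the thymidine kinase Tk1 to 40.4% for the dUTPase gene Dut.

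Cluster 6 could be compared directly with cluster 5 over the 631 genes listed for both. It was higher by at least 10 points for 144 of these (22.8%) and lower for 178 (28.2%), with a median difference of -0.5 points. The replication genes were detected alike, 44 of 52 within 10 points, 3 higher and 5 lower. Of the mitosis genes 28 of 63 were higher in cluster 6, 35 were within 10 points and 0 were lower. Those that stood higher included Kif15, at 47.5% in cluster 5 against 73.6%, Cenpf, at 58.2% against 83.0%, Hmmr, at 57.9% against 80.0%, and Ncapg2, at 65.3% against 83.0%. Several mitotic regulators were listed for cluster 6 and not for cluster 5, among them Ccnb1, the cyclin partner of Cdk1, and Cdc20, an activator of the anaphase-promoting complex.

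Against cluster 9, with 532 genes listed for both, cluster 6 was higher for 85 (16.0%) and lower for 200 (37.6%), and the median difference was -3.7 points. Of the mitosis genes 21 of 72 (29.2%) were lower in cluster 6, 6 (8.33%) were higher and 45 were within 10 points, with a median of -3.3 points, so this list was lower no more often than the genes compared in general. Ccnb1 was detected in 57.8% of cluster 6 and 82.0% of cluster 9 cells, Cdc20 in 49.8% and 86.6%, the centromeric histone Cenpa in 63.1% and 95.7%, and Ccnb2 in 55.8% and 85.3%. The 6 that were higher in cluster 6 were Kif15, with 48.9% in cluster 9, Top2a, with 78.9%, Kif11, with 62.8%, Incenp, with 63.5%, Aurkb, with 52.9%, and Ncapg, with 51.6%. In cluster 6 Kif11 was detected in 74.6%, Incenp in 74.8%, Aurkb in 64.5% and Ncapg in 62.3%, and the gaps of the 6 genes ranged from 10.7 points for Ncapg to 24.7 for Kif15.

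The S phase histones set clusters 5 and 6 apart from cluster 9. Hist1h1b was detected in 91.5% of cluster 5, 92.5% of cluster 6 and 53.7% of cluster 9 cells. Hist1h2ap, a core histone H2A gene, was detected in 75.1%, 76.8% and 32.9%, and the linker histone Hist1h1e in 84.2%, 92.5% and 49.2%. All 3 histone genes listed for the 3 clusters were lower in cluster 9 than in cluster 6, by 38.8 to 43.9 points. Others were listed for clusters 5 and 6 only among the cycling clusters, such as Hist1h1a, at 50.8% and 61.1%, and Hist1h4d, at 57.1% and 68.8%. Histone genes of these clusters are close copies of one another and most of their transcripts lack a poly(A) tail, so counts from a poly(A)-based library are uncertain for a single copy.

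Ordered by cluster, 7 of the 8 replication genes listed for all 3 were highest in cluster 5 and 1 in cluster 6. Of the 57 mitosis genes, 2 were highest in cluster 5, 25 in cluster 6 and 30 in cluster 9. Over all 408 genes listed for the 3 clusters, 165 were highest in cluster 5, 127 in cluster 6 and 99 in cluster 9, with 17 ties. The median detection of the mitosis genes was 57.4%, 70.4% and 68.2% in clusters 5, 6 and 9. With no replicates, gaps of a few points between neighbouring clusters carry no order.

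**Figure D3:**
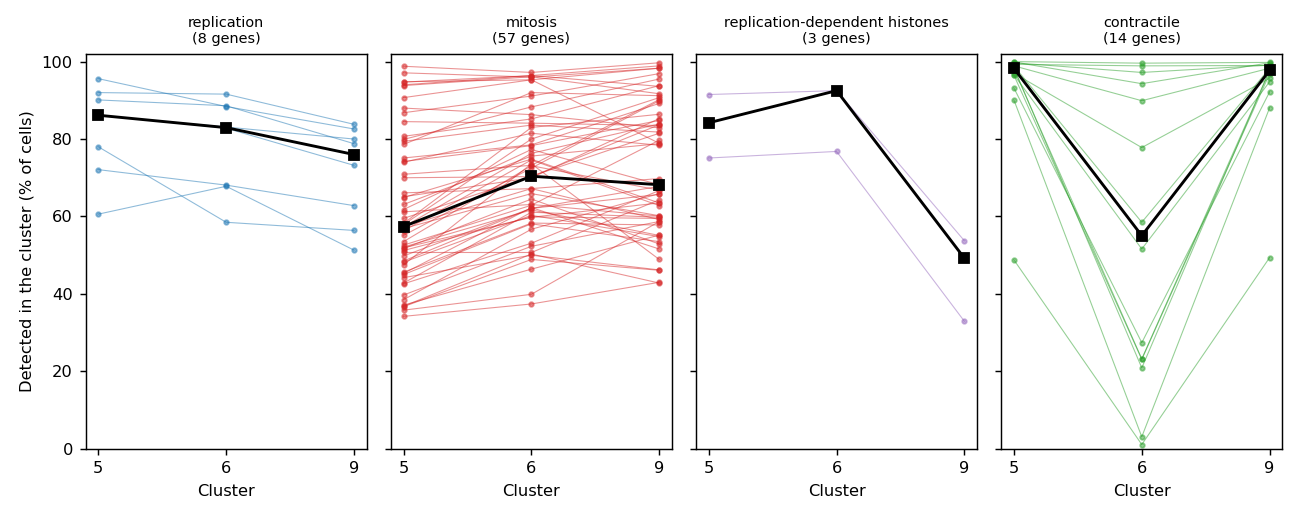
Percent of cells with a gene detected (vertical, 0 to 100) in clusters 5, 6 and 9, for genes of 4 lists that are listed in all 3 clusters. Thin lines are single genes and black squares their medians; the mitosis median goes from 57.4% to 70.4% and 68.2%, the histone median from 84.2% and 92.5% to 49.2%, and the contractile median from 98.2% down to 55.0% and up to 97.8%.

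Outside the cell cycle, cluster 6 parted from both other cycling clusters. The genes with the largest excess over cluster 5 were A2m, a secreted protease inhibitor of the acute phase, at 78.5% in cluster 6 and 1.5% in cluster 5, the fatty acid transporter Cd36, at 78.2% and 2.4%, the carbonic anhydrase Car3, at 71.5% and 1.9%, the retinol-binding protein Rbp4, at 86.7% and 20%, and the imprinted zinc-finger gene Peg3, at 81.4% and 17.6%. The first 3 also led against cluster 9, where A2m was detected in 1.7%, Cd36 in 3.5% and Car3 in 2.1% of cells. Serpina3n followed there, at 35.7% in cluster 9, and then Apln, the gene of the secreted peptide apelin, at 77.8% in cluster 6 and 24.2% in cluster 9. Col5a3 was detected in 24.9% of cluster 5 cells and had no entry for cluster 9.

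Adipocyte genes were among this excess. Of 35 adipocyte genes 13 were listed for cluster 6. Of these, 11 (84.6%, against 51.9% of all entries) were detected in more cells than elsewhere and 0 in fewer, with a median difference of 32.2 points. Against cluster 5, 9 of 11 (81.8%, against 22.8% of all genes compared) were higher and 0 lower. Against cluster 9, 6 of 8 (75.0%, against 16.0%) were higher and 0 lower. The fatty acid-binding protein Fabp4 was detected in 99.9% of cluster 6 cells, 59.9% of cluster 5 and 67.7% of cluster 9. The desaturase Scd1 was detected in 99.4%, 48.9% and 49.6%, and Fasn, the fatty acid synthase, in 76.6%, 39.9% and 37.8%. Plin1, which coats lipid droplets, was found in 45.5% of cluster 6 and 1.9% of cluster 5 cells, and the adipokine Retn in 37.0% and 1.0%. The other 22 genes of the list, among them Adipoq, Lpl, Cidec and the regulator Pparg, had no entry for cluster 6, which does not give their level. None of 13 thermogenic genes was listed for cluster 6, including Ucp1, Cidea, Ppargc1a and Elovl3, which the study used for beige adipocytes, although 5 of the 13 were listed for some cluster.

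Genes of the contractile cytoskeleton differed in the opposite direction. The smooth-muscle myosin light chain Myl9 was detected in 3.1% of cluster 6 cells, 90.1% of cluster 5 and 88.1% of cluster 9. Tagln, an actin-binding protein of stress fibres, was detected in 20.9%, 98.4% and 97.8%, the smooth-muscle actin Acta2 in 23.2%, 98.1% and 97.7%, and the tropomyosin Tpm2 in 23.1%, 96.5% and 96.9%. Of 18 contractile genes listed for cluster 6, 10 (55.6%, against 14.9% of all entries) were detected in fewer cells than elsewhere and 2 in more, with a median of -11.7 points. With a minimum of 20 points these counts were 5 and 0. Against cluster 5, 12 of 17 (70.6%, against 28.2% of all genes compared) were lower and 0 higher. Against cluster 9, 9 of 14 (64.3%, against 37.6%) were lower and 0 higher. The 2 detected in more cells than elsewhere were Tagln2, at 89.9% and 74.2%, and Tpm4, at 97.2% and 84.8%, and both were in 98.3% to 99.7% of cells of clusters 5 and 9.

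Genes outside the contractile list were low in cluster 6 too. Pdlim2, which binds the actin cytoskeleton, was detected in 10.6% of cluster 6 cells and 51.3% of other cells. Emp3, a small membrane protein, was detected in 14.1% of cluster 6 cells, 94.8% of cluster 5 and 96.0% of cluster 9. Tm4sf1, a tetraspanin-like membrane protein, was detected in 7.6%, 79.7% and 87.7%, the matricellular gene Ccn2 in 11.7%, 87.5% and 83.3%, and Igfbp6, which binds insulin-like growth factor, in 19.8%, 90.9% and 88.6%. Of 6 listed preadipocyte genes 4 (66.7%, against 14.9% of all entries) were detected in fewer cells than elsewhere and 2 (33.3%, against 51.9%) in more. Cd24a, a surface protein of early adipocyte progenitors, was detected in 29.6% of cluster 6 cells and 5.3% of other cells, and in 23.1% of cluster 2. Thy1 was found in 20.9% of cluster 6 against 88.4% and 87.1%, and Cd9 in 14.7% against 88.4% in cluster 9. Among the study's own preadipocyte markers Mmp3 was detected in 32.7% of cluster 6 and 50.2% of other cells, F3 in 65.1% and 77.1%, and Itgb1 in 96.3% and 85.8%. The matrix list was split, with 7 of 27 listed genes in more cells (25.9%, against 51.9% of all entries) and 7 in fewer (25.9%, against 14.9%). The basement membrane collagen Col15a1 (77.3% and 35.5%) and Col6a2, a microfibrillar collagen of the cell surface (93.8% and 67.0%), were higher than outside, while the metalloprotease inhibitor Timp3 (13.7% and 53.5%) and the microfibril gene Mfap4 (6.4% and 44.1%) were lower.

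**Figure D4:**
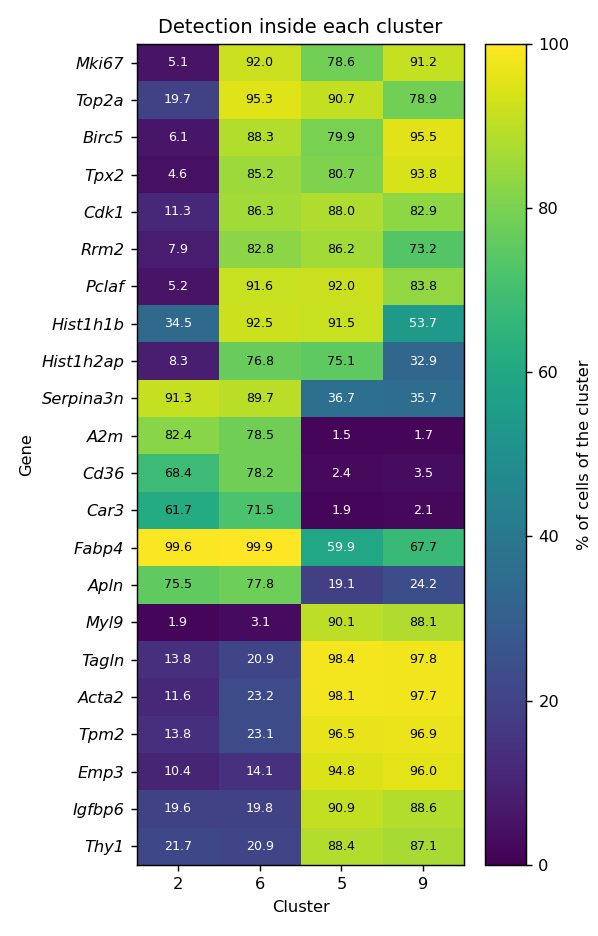
Percent of cells with each of 22 genes detected inside clusters 2, 6, 5 and 9, printed in each box and shown by colour from 0 to 100. In the upper rows cluster 6 resembles cluster 5 and not cluster 2. It also resembles cluster 9 there, except for Hist1h1b (92.5% in cluster 6 and 53.7% in cluster 9) and Hist1h2ap (76.8% and 32.9%). In the lower rows cluster 6 resembles cluster 2, as for A2m (82.4% in cluster 2 and 78.5% in cluster 6) and Myl9 (1.9% and 3.1%).

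Cluster 2 shared this side of the profile. It held an estimated 12.12% of the cells, and 692 genes were listed for both clusters. Cluster 6 was higher for 272 of them (39.3%) and lower for 4 (0.578%), with a median difference of 7.1 points. Serpina3n was detected in 91.3% of cluster 2 cells, Col5a3 in 75.6%, A2m in 82.4%, Cd36 in 68.4%, Car3 in 61.7%, Apln in 75.5% and Fabp4 in 99.6%. Thy1 was detected in 21.7%, Igfbp6 in 19.6%, Emp3 in 10.4%, Tagln in 13.8% and Acta2 in 11.6% of cluster 2 cells. Of the 18 contractile genes 7 were higher in cluster 6 than in cluster 2 and 0 lower. Their share of 38.9% was close to the 39.3% over all genes compared. Of 7 adipocyte genes 1 (14.3%) was higher and 0 lower.

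The genes that cluster 6 had in excess of cluster 2 were led by those of division. Mki67 was detected in 5.1% of cluster 2 cells, Pclaf in 5.2%, Birc5 in 6.1%, Tpx2 in 4.6% and Cenpf in 4.7%. All 31 mitosis genes and all 6 replication genes listed for both were higher in cluster 6, with medians of 68.1 and 67.2 points. The 4 lower ones were Ahnak2, at 19.1% in cluster 6 and 38.2% in cluster 2, the matrix genes Abi3bp, at 22.5% and 35.0%, and Aebp1, at 81.7% and 92.5%, and the zinc transporter Slc39a14, at 79.0% and 90.1%. The matrix protease Adamts5 came next, 9.0 points lower in cluster 6.

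Genes that separated cluster 6 from cluster 5 were set beside cluster 2. Of 52 genes at least 30 points higher than in cluster 5 and listed for cluster 2 too, 42 (80.8%) were within 10 points of their level in cluster 2. Of 83 genes at least 30 points lower than in cluster 5, 48 (57.8%) were within 10 points of cluster 2 and the other 35 were at least 10 points above it. Over all 692 genes listed for clusters 2 and 6 the share within 10 points was 60.1%. Of these 692, 372 were also listed for cluster 5, and only they could be among the 52 or 83. The share over the 372 alone is not given.

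**Figure D5:**
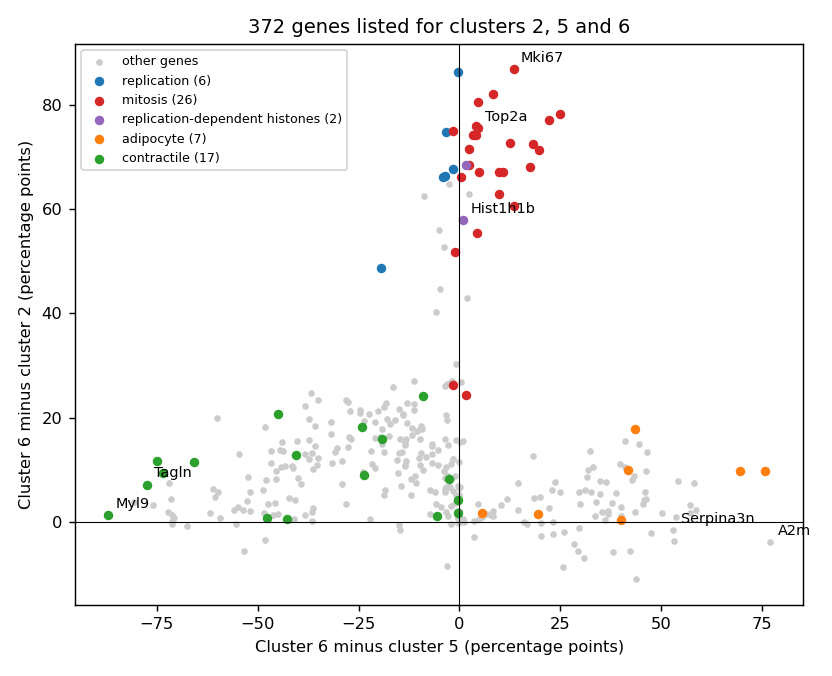
Each point is 1 of the 372 genes listed for clusters 2, 5 and 6, with the detection in cluster 6 minus that in cluster 5 (horizontal) and minus that in cluster 2 (vertical), both in percentage points. Mitosis, replication and histone genes lie between -19.5 (Gins2) and 24.8 (Cenpf) on the horizontal axis and mostly above 40 on the vertical one, while contractile genes extend to -87.0 and adipocyte genes to 75.8 on the horizontal axis.

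Chromatin genes were a further group detected in more cells of cluster 6. All 21 listed members of a list of 26 high mobility group and chromatin genes passed 10 points against other cells, with a median of 29.3. Of all entries 51.9% did so. The count was 16 with a minimum of 20 points and 11 with a ratio of at least 1.5. As for the division genes, a complete count partly follows from the listing. Hmgb2, a DNA-bending protein, was detected in 99.3% and 47.5%, the Polycomb methyltransferase Ezh2 in 80.9% and 27.8%, the heterochromatin protein Cbx5 in 94.5% and 49.8%, and the lamin B receptor Lbr in 69.3% and 22.0%. In clusters 5 and 9, 15 of 16 and 11 of 13 were within 10 points of cluster 6. The exceptions were Suz12, the partner of Ezh2, at 75.9% in cluster 5 against 89.6%, and Ezh2 and Cbx5 themselves, at 62.9% and 82.4% in cluster 9. The genes deleted in DKO mice were both listed. Hmgn1 was detected in 98.7% of cluster 6 cells and 85.4% of others, and Hmgn2 in 48.3% and 22.9%, over WT and DKO cells together. These values cannot check the knockout, since the genotypes are pooled and a 3′ tag may lie outside the deleted part. Their relatives Hmgb3, at 49.5% and 14.7%, and Hmgn5, at 59.4% and 21.2%, had no entry for clusters 2, 5 or 9.

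Some genes that restrain the cycle were also listed. Of 9 listed members of a list of G1 cyclins and inhibitors, 6 (66.7%, against 51.9% of all entries) were detected in more cells and 0 in fewer. The 6 were the inhibitors of cyclin-dependent kinases Cdkn2c (64.9% and 25.4%), Cdkn2d (58.8% and 23.9%) and Cdkn1b (76.8% and 46.8%), the retinoblastoma relative Rbl1 (43.6% and 7.8%), and the antiproliferative genes Btg1 (96.3% and 63.0%) and Gas1 (89.7% and 58.9%). The other 3 were slightly lower than elsewhere, namely Btg2 (53.0% and 56.0%), Gadd45a (28.2% and 34.6%) and Gadd45g (58.0% and 60.3%). With so few genes the share of this list is not set apart from that of all entries. Btg1 was detected in 95.3% of cluster 2, 56.2% of cluster 5 and 63.4% of cluster 9 cells, and Gas1 in 85.9%, 55.8% and 69.8%, so both went with the differentiating side. Cdkn2d was within 10 points in clusters 5 and 9, at 55.8% and 65.6%. Cyclins D and the kinases Cdk4 and Cdk6 had no entry for cluster 6.

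There were 134 genes listed for cluster 6 and for no other cluster. Of these, 119 were detected in at least 10 points more of its cells, while 51.9% of all entries were. By at least 10 points 1, the phosphatase Dusp3, was in fewer (13.6% and 28.4%), against 14.9% of all entries. These genes passed the authors' minimums in cluster 6 only, so the counts partly follow from how they were picked. The largest differences were those of the centrosome scaffold gene Pcnt (73.9% and 21.9%), the nuclear pore gene Ndc1 (64.0% and 16.2%), Lbr, the kinetochore gene Zwilch (55.0% and 7.9%), the spindle checkpoint kinase Ttk (48.7% and 5.4%), the DNA repair genes Gen1 (47.8% and 5.5%) and Mdc1 (57.8% and 15.5%), and the nuclear exporter Xpo1 (82.7% and 41.0%). Having no entry elsewhere means that a gene missed the authors' minimums in the other clusters and does not give its level there.

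Lists for other cell types were nearly empty. None of 10 immune, 6 glial or 9 mural and mesothelial genes was listed for cluster 6, and the immune genes were listed for no cluster. Of 7 endothelial genes 1 was listed, Egfl7, at 46.3% inside and 14.5% outside, while Pecam1 and Cdh5 had no entry. Per the study's methods immune, glial and endothelial cells had been removed before clustering.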

How the data were processed

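Single-cell RNA was captured at the 3′ end in droplets from WT and DKO cultures at day 0 and day 6, with 2 samples per group and groups taken from the sample labels. Per the labels and the study's methods, the authors mapped reads to mm10 with Cell Ranger 6.0.0, merged the captures at equal read depth, filtered and clustered the cells in Seurat, and compared each cluster with all other cells by the MAST test. Doublet removal is not described in the sources used here, and doublets were not looked for since the table has no single cells. The authors deposited, per gene and cluster, a detection fraction for the cells of the cluster and another for the rest of the cells. Both are printed as percents. The deposited log2 fold changes, p-values and adjusted p-values of the authors' comparison were not used.

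Values were computed in Python 3.11.15 (pandas 2.3.3, numpy 2.4.6) and drawn with matplotlib 3.10.9. Differences of at least 10 percentage points were counted, with 5 and 20 points, a ratio of at least 1.5 and a minimum detection of 25% as alternatives. Clusters were compared over genes listed for both. Shares of clusters came from a least-squares fit to the 10 genes with an entry in all clusters, since each cluster must return the same overall detection, and this step was tested on simulated data. A spreadsheet had turned the symbols of 35 entries into dates, 3 of them in cluster 6. They were restored from row names where these allowed it, and any others were left unnamed. Promoter words were counted in RefSeq promoters. Fewer than 80% of the genes detected in fewer cells and of the adipocyte genes matched a promoter, so their shares are void and not given. The match was by symbol or synonym, for 65 of 81 mitosis, 44 of 54 replication, 10 of 12 histone and 16 of 18 contractile genes.

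Named genes were the 4 markers of the cluster, Hmgn1 and Hmgn2, the study's annotation markers, the 10 largest and 8 lowest differences against other cells, the 8 largest among genes listed for cluster 6 only, the 5 largest each way against clusters 5, 9 and 2, and the 4 largest absolute differences of each list. Further list members were named after their values had been seen. The members and lists were chosen with earlier results of these data known.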

Additional observations from a re-analysis of the deposited data

How the results depend on the processing

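All values rest on cells pooled over samples, so leaving out a sample was not possible. No paired analysis was possible because samples have no columns and nothing was tested. The estimated share of cluster 6 was 7.46% also when solved from the 2692 genes that had entries in 2 or more clusters, and the detection outside clusters 5, 6 and 9 moved by at most 0.1 percentage points. The counts that moved by over 1.5 times followed from how strict the minimum was. With at least 20 points, 80 entries were detected in fewer cells of cluster 6 than elsewhere, 91 genes were higher than in cluster 5, 130 were lower than in cluster 9, and 83 were higher and 0 lower than in cluster 2. With at least 5 points, 413 genes were higher and 17 lower than in cluster 2. With a ratio of at least 1.5, which drops genes near the ceiling, 74 genes were higher and 95 lower than in cluster 5, 43 higher and 98 lower than in cluster 9, and 114 higher than in cluster 2. Among counts over gene lists and promoter words, 109 stayed within 1.5 times and 29 did not, with fewer genes under the stricter minimums and more under 5 points. The 109 include many counts that were 0 under both settings, such as replication and mitosis genes in fewer cells. They also include the medians of detection outside clusters 5, 6 and 9, so the tally is no measure of how stable the other counts are. Genes of nuclear transport and splicing, mitochondrial transcripts and the chromatin, contractile, matrix and preadipocyte lists were among those that moved. The counts of replication, mitosis, histone and adipocyte genes in more cells than elsewhere were among the 109. Counting only the bases before the start put the homology word in 29 of 73 mitosis promoters (39.7%, against 16.0% of all) and the TATA box in 2, and E2F-type words in 31.4% of replication promoters, against 2.92%.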

Other observations

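Further lists that belong in no comparison above were read for cluster 6. Genes of nuclear transport and RNA splicing were detected in more cells for 19 of 22 listed members (86.4%, against 51.9% of all entries), by a median of 17.2 points, led by the splicing factors Srsf1 (86.4% inside and 51.9% outside), Tra2b (92.0% and 62.7%), Srsf10 (86.6% and 58.5%) and Nono (93.6% and 66.5%). The count was 9 with a minimum of 20 points and 1 with a ratio of at least 1.5. All 11 of these genes that were also listed for cluster 5, and all 13 also listed for cluster 9, were within 10 points of cluster 6. Over all genes compared, 309 of 631 and 247 of 532 were. Ribosomal protein genes were near the ceiling, with 0 of 20 listed members past 10 points and a median of 1.8. The widest gaps were those of Rps27l (98.2% and 89.0%), Rpl4 (99.7% and 93.5%), Rpl36a (99.9% and 94.3%) and Rpl23a (99.9% and 96.1%).

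Of 11 listed mitochondrial transcripts 5 (45.5%, against 51.9% of all entries) were detected in more cells, 2 of them by at least 20 points and 1 by a ratio of at least 1.5. The widest gap was that of mt-Nd6, a subunit of respiratory complex I and the one protein gene on the light strand, at 93.3% in cluster 6 and 47.4% in other cells. It was detected in 87.6% of cluster 2, 47.4% of cluster 5 and 43.4% of cluster 9 cells, and mt-Atp8 in 97.6% of cluster 6, 94.3% of cluster 2 and 67.8% of cluster 5 cells. In cluster 6 and other cells mt-Nd3 stood at 99.2% and 82.6% and mt-Nd4l at 98.9% and 83.7%.

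Secreted proteins of inflammation were split. Of 10 listed genes of the acute phase and complement 3 were detected in more cells of cluster 6 and 4 in fewer. Saa3, a serum amyloid, was detected in 75.0% and 42.3%, 70.8% in cluster 2 and 29.3% in cluster 5. The complement genes C4b (14.1% and 44.6%), C1s1 (34.8% and 50.9%), C1ra (17.2% and 31.0%) and Serping1 (55.8% and 71.2%) were in fewer. Of 6 chemokine and cytokine genes 3 (50.0%, against 14.9% of all entries) were in fewer cells and 0 in more. The 3 were Ccl8 (5.2% and 34.4%), Ccl7 (34.1% and 53.2%) and Cxcl14 (30.2% and 47.6%), while Cxcl12 stood at 69.7% and 77.4%. Of 6 immediate early genes 2 (33.3%, against 14.9% of all entries) were in fewer cells and 0 in more. The 2 were the transcription factor gene Klf2 (5.0% and 25.8%) and Ier3 (47.0% and 58.5%). Klf4 (38.9% and 45.3%) and Fosb (46.7% and 44.7%) were within 10 points. Glycolysis and cholesterol synthesis had 3 and 2 listed genes. Past 10 points were Pfkl (93.3% and 69.3%) and Idi1 (66.6% and 35.9%), shares of 33.3% and 50.0% against 51.9% of all entries. Pgk1 (99.7% and 91.6%), Pkm (100% and 94.7%) and Fdps (58.6% and 56.8%) were within 10 points. Of 6 listed histone variants 5 (83.3%, against 51.9% of all entries) were in more cells, among them H2afx (86.8% and 40.6%), H2afv (95.2% and 62.9%) and H1f0 (86.3% and 55.9%). H3f3b was near the ceiling.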
